A study of Mus musculus with 16 samples.

Results

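GABA and glutamate receptor genes were described in pituitary RNA of 16 female mice. They were 35 genes of the 17362 in the table of values. Each has the symbol of a GABA-A or GABA-B subunit, an AMPA, NMDA, kainate or delta subunit, or a metabotropic glutamate receptor. Of these, 14 encode GABA receptors and 21 encode glutamate receptors. Another 7 genes of such names, *Gabra6*, *Gabrp*, *Gabrr1*, *Gabrr3*, *Grin2c*, *Grm4* and *Grm8*, were not analysed here. Mice of 4 groups, with 4 mice and 1 library per mouse in each, were compared at 27 weeks of age. Control mice (Ctrl) carried the floxed *Esr1* fl/fl allele and no Cre, so this allele was shared by all 16 mice, which were of a mixed CD-1 and 129P2 background. Esr1Nkx2-1Cre mutants also carried the *Nkx2-1* Cre driver, which deletes *Esr1*, the gene of oestrogen receptor alpha, in cells that express or once expressed *Nkx2-1*. Which cells of the pituitary lost the gene was not measured in these samples. Each genotype was fed standard diet (SD, called CHOW in the labels) or a high-fat diet (HFD) for 17 weeks, and the comparisons ask how genotype, diet and their combination changed the transcripts of this tissue.

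GABA-A receptors are pentameric chloride channels, usually of alpha, beta and gamma subunits together, whereas GABA-B receptors are pairs of G-protein-coupled subunits. AMPA, kainate and NMDA receptors are tetrameric cation channels opened by glutamate, delta subunits are related proteins that bind synaptic organizers, and metabotropic glutamate receptors are G-protein-coupled. In the pituitary, GABA from hypothalamic axons and from endocrine cells acts on hormone cells of the anterior and intermediate lobes and on nerve endings of the posterior lobe, and glutamate receptors are present on endocrine cells.

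The deposited values were normalized expression values per transcript length, 1 per gene and mouse, and are called units below. Read counts were not given, but the steps between low values put 1 read at 0.0446 to 0.0684 units per kilobase, so a value of 1 in a transcript of 3 kilobases rested on about 43.9 to 67.3 reads. *Esr1* was at 38.9 ± 7.32 units (mean ± s.d., n = 4) in controls and 18.6 ± 5.77 in mutants on SD, and at 37.3 ± 9.29 in controls and 28.97 ± 5.53 in mutants on HFD. The lowest control on HFD (23.6, P385) lay inside the range of mutants on that diet (21.5 to 33.4). The prolactin gene *Prl*, the marker of lactotrophs, was at 262175 to 496854 units, so pituitary hormone cells were present in every library. A pair of libraries stood apart, the SD mutant P357 and the HFD control P392. In 14 marker genes of the posterior and intermediate lobes, their mean log2(value + 0.5) was 1.60 and 2.30, against 3.63 to 4.14 in the other 14 mice. *Rax* and *Avp*, markers of the posterior lobe, were listed at 0 in both, and the melanotroph factor *Pax7* was at 0.132 in P357 and 1.16 in P392, against 4.58 to 13.5 elsewhere. Not all genes of the list were low in both mice. *Col25a1* was at 13.9 in P357 and 15.3 in P392. It was at 6.06 to 11.9 in the other controls and 14.5 to 18.2 in the other mutants, so P392 lay among the mutants. *Tbx3* (4.97), *Fgf10* (5.81) and *Tbx19* (21.2) in P392 were within the range of the other 14 mice, and these genes were lowest in P357. *Esr1* in P392 was 39.6, inside the range of the other HFD controls. P357 stood apart in other measures as well. Its values summed to 1335782, against 908897 to 1080960 in the other mice, and 533 genes were at 0, against 96 to 310. The blood markers *Hba-a1* and *Hbb-bs* summed to 2463 in P357, against 332 to 1852 elsewhere. The part of these features in its receptor gene values was not tested.

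Receptor genes covered a wide range of levels in units per transcript length. *Gabbr1*, which encodes the ligand-binding subunit of the GABA-B receptor, was highest, with a mean of 155.5 over the 16 mice and values of 114 to 179. It was followed by *Grin1*, the obligatory NMDA subunit (mean 43.7), the kainate subunit *Grik5* (42.2), the AMPA subunit *Gria2* (14.6), *Grik2* (12.9), *Gria1* (11.7), the GABA-A subunit *Gabra2* (8.81), *Grik3* (7.17), *Gabre* (5.53) and *Gabrb1* (5.38). Ranges of *Grin1* (28.0 to 54.3) and *Grik5* (31.6 to 61.6) overlapped over the 16 mice, as did those of *Gria2*, *Grik2* and *Gria1*, so the order of these neighbours was within their spread. The partner of *Gabbr1* in the GABA-B receptor, *Gabbr2*, was at 0.222 to 2.05, below *Gabbr1* in every mouse.

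Genes were tested where their mean, taken over all 16 mice, was 1 or more, and 21 of the 35 reached it, 7 of the 14 GABA receptor genes and 14 of the 21 glutamate receptor genes. These were *Gabra2*, *Gabra3*, *Gabra4*, *Gabrb1*, *Gabrb2* and *Gabre* of the GABA-A subunits, and *Gabbr1* of the GABA-B subunits. On the glutamate side they were 4 of 4 AMPA, 3 of 6 NMDA and 4 of 5 kainate subunits, the delta subunit *Grid1*, and the metabotropic receptors *Grm5* and *Grm7*. The remaining 14 had means between 0.0822 (*Grm3*) and 0.967 (*Gabrg1*), and *Gabrg1* and *Gabbr2* (0.836) lay closest to the limit, next to *Grm7* (1.18) and *Gabrb2* (1.33) just above it. *Gabra5*, *Gabrg3*, *Gabrd*, *Gabrq*, *Gabrr2*, *Grin2b*, *Grm2*, *Grm3* and *Grm6* had means of 0.311 or less, a level of fewer reads than in tested genes of similar length. Mutants with a value of 0 were found for *Grm3* (1 on each diet) and *Gabrr2* (1 on SD). *Grm7* passed because of the mutants, since all 8 controls were under 1.

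**Figure D1:**
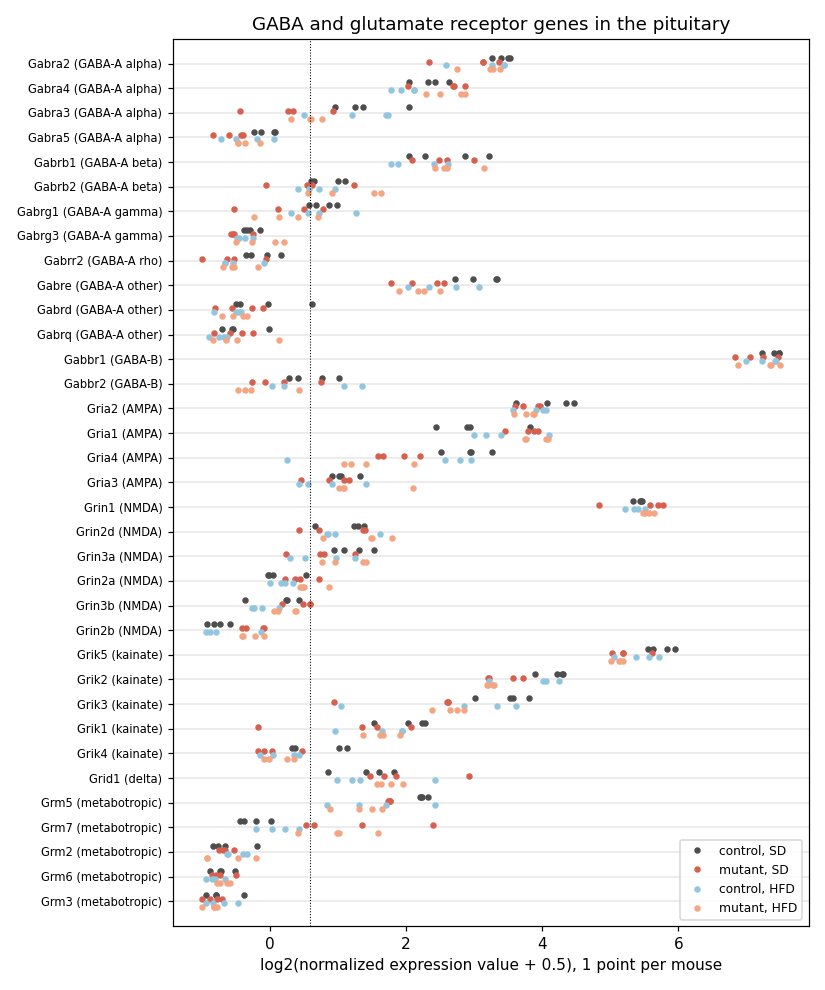
Levels of the 35 receptor genes by family. Each point is 1 mouse, the x axis is log2(normalized expression value + 0.5), colours give the 4 groups and the dotted line marks a value of 1. *Gabbr1* lies to the right of all others, and most metabotropic receptor genes lie left of the line.

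Averaged over the 2 diets, 5 of the 21 tested receptor genes differed between mutants and controls (23.8%), against 6.54% of the 14345 genes tested (limma, Benjamini-Hochberg adjusted p under 0.05). *Grik2*, *Grik5*, *Gabre* and *Gabra3* were lower in mutants, 4 genes against a background of 2.06% of all genes lower. *Grm7* was higher, 1 gene against a background of 4.48% higher. *Grm7* reached the mean of 1 only through the mutants and *Gabra3* only through the controls, so their place among the tested genes depended on their difference. Among genes with a mean of 1 or more in both genotypes, 3 of 19 receptor genes passed averaged over diets, all lower in mutants (15.8%, against 6.13% of 13942 genes, of which 1.95% lower), and 0 on SD (background 1.67%). With no filter, *Grm7* and *Gabra3* passed averaged over diets at adjusted p of 0.0126 and 0.0273 by limma. That fit called 5 of all 35 receptor genes, against 983 of 17362 genes, but not the same 5. There, 2 were higher (690 of all genes) and 3 lower (293), and *Gabre* was no longer called. Among all genes, 642 were higher and 296 lower, a split that became 608 and 474 after quantile normalization. On SD alone, 1 receptor gene passed (4.76%, against 1.84% of all genes), *Grm7* higher (background 1.37%), 0 were lower (background 0.474%), and 9 of the 21 had an unadjusted p under 0.05 (42.9%, against 19.9% of all genes). On HFD alone, 0 of 21 passed by limma, as did 0% of all genes, and 4 had an unadjusted p under 0.05 (19.0%, against 10.2%). The 4 mutants did not overlap the 4 controls on SD in 7 of the 21 genes (33.3%, against 10.6% of all genes tested), with 6 lower and *Grm7* higher in mutants, and in 5 of the 19 with a mean of 1 or more in both genotypes (26.3%, against 10.1%). On HFD, the groups did not overlap in 1 gene (4.76%, against 5.3%), *Gabra4*, and in 0 genes on both diets (background 0.732%). The median log2 fold change of the 21 was -0.32 on SD (-0.01 over all genes), 0.02 on HFD (0.02 over all genes) and -0.13 averaged over diets (0.00 over all genes). RNA came from bulk tissue, and whether each sample held the whole gland is not stated. Fewer cells of a type and less RNA per cell therefore cannot be told apart in any of these values.

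**Figure D2:**
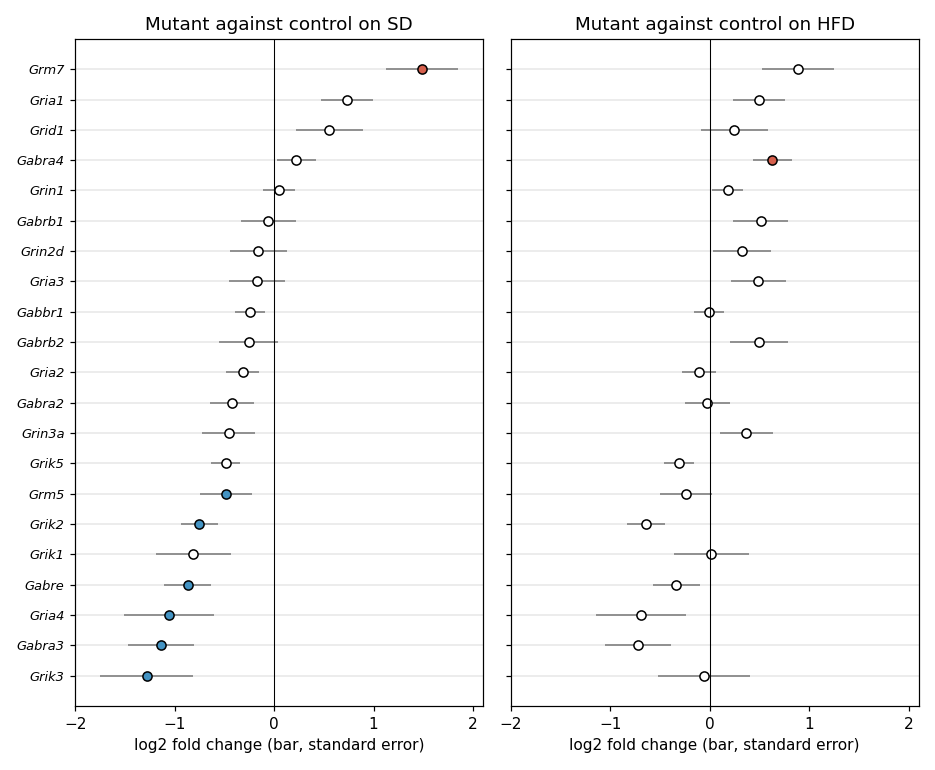
Change of the 21 tested receptor genes in mutants. Points are log2 fold changes of mutant against control from limma on log2(value + 0.5), bars are standard errors, the left panel is SD and the right panel HFD, and filled points are genes whose 4 mutants do not overlap the 4 controls. Most points lie left of 0 on SD, with filled points for 7 genes there and for *Gabra4* on HFD.

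Summed levels of endothelial and immune markers were separate between genotypes on SD and overlapped on HFD. Sums of neuron, glia, stem and folliculostellate, somatotroph, gonadotroph and corticotroph markers overlapped on both diets. These sums were not tested. Of the stem cell list, *Aldh1a2* was at 23.9 to 27.7 in SD controls and 34.4 to 59.7 in SD mutants, and overlapped on HFD, while its other genes overlapped on SD. The 4 endothelial markers (*Pecam1*, *Cdh5*, *Plvap* and *Emcn*, all detected in each mouse) summed to 89.8 to 112 units in SD controls and 133 to 192 in SD mutants, and to 84.5 to 153 in HFD controls and 128 to 137 in HFD mutants. The value of 153 was that of P392, and the other HFD controls reached at most 95.6. The 4 immune markers (*Ptprc*, *Cd68*, *Csf1r* and *C1qa*, all detected) summed to 21.9 to 31.4 in SD controls, 40.7 to 90.7 in SD mutants, 17.8 to 65.7 in HFD controls and 38.0 to 77.8 in HFD mutants. Markers of neurons of other brain regions (6 of 10 detected) summed to 25.0 to 32.0 in SD controls and 28.6 to 41.4 in SD mutants, and to 24.6 to 40.2 in HFD controls and 36.3 to 47.2 in HFD mutants. The highest of them in every mouse was *Slc17a6*, which was higher in mutants and is given with the genes of glutamate transport. The other neuron markers did not follow it on SD. *Slc17a7* was lower in SD mutants (0.653 to 2.49) than in SD controls (3.05 to 5.24), and overlapped on HFD. *Camk2a*, *Agrp*, *Hcrt* and *Nrgn* overlapped between the SD groups. Markers of glia (6 of 8 detected) summed to 24.7 to 35.6 in SD controls, 32.0 to 38.9 in SD mutants, 32.6 to 42.5 in HFD controls and 34.5 to 40.2 in HFD mutants. Of the hormone cell markers, *Drd2* and *Dio2* are named after their values were seen. *Drd2*, the dopamine receptor of lactotrophs, was at 52.5, 61.8, 67.4 and 69.7 in SD controls and 12.4, 42.6, 33.7 and 43.3 in SD mutants. *Dio2*, a thyroid hormone deiodinase listed for thyrotrophs, was at 14.7 to 29.1 in SD controls and 37.9 to 61.3 in SD mutants. The SD groups were separate for both genes. On HFD, *Drd2* was at 24.7 to 70.1 in controls and 38.2 to 51.7 in mutants. *Dio2* on HFD was at 14.7 to 71.7 in controls and 60.8 to 77.3 in mutants, so both genes overlapped there. The other gene of each list overlapped on SD. *Prl* was at 285147 to 330789 in SD controls and 303165 to 496854 in SD mutants, and *Tshb* at 267 to 461 and 237 to 697. The part of vessel, immune, neuronal or hormone cell content in the receptor gene differences was not tested.

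Of the 4 kainate receptor subunits tested, *Grik2* and *Grik5* were lower in mutants averaged over diets. *Grik2* encodes a pore-forming subunit that makes functional channels by itself (minus strand of GRCm38 chromosome 10, 49094833 to 49788766). On SD, its values were 14.4, 19.1, 18.2 and 19.2 in the controls (P356, P358, P359 and P383, the order used for each gene) and 12.6, 11.3, 8.85 and 8.702 in the mutants (P357, P381, P382 and P384). On HFD, the controls were at 15.6, 16.1, 18.4 and 8.81 (P385, P390, P391 and P392) and the mutants at 8.69, 9.23, 8.604 and 9.33 (P339, P341, P387 and P388). Every mutant was below every control with the exception of P392, which lay among the mutants. The log2 fold change, on the scale of log2(value + 0.5) used throughout, was -0.70 (s.e. 0.13) averaged over diets, with an adjusted p of 0.00847 by limma. It was -0.75 (s.e. 0.19) on SD and -0.64 (s.e. 0.19) on HFD, with adjusted p of 0.0537 and 0.256. The averaged call was kept in all 16 fits that left out 1 mouse, with values from -0.85 to -0.64 over these and all other settings tried. Leaving out P356, P391 or P392 brought the SD comparison to an adjusted p under 0.05 (-0.85, -0.75 and -0.75).

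*Grik5* encodes a subunit that binds glutamate with high affinity and needs partners such as GRIK2 to form channels (chromosome 7, 25009849 to 25072346, minus strand). It was at 46.3, 56.4, 48.9 and 61.6 in controls and 48.5, 35.8, 36.05 and 32.1 in mutants on SD. With HFD it was at 41.1, 46.7, 52.1 and 32.6 in controls and 31.6, 34.96, 34.4 and 35.9 in mutants. The SD mutant P357 and the HFD control P392 each lay within the other genotype, and without them the ranges on each diet were separate. Averaged over diets, the log2 fold change was -0.40 (s.e. 0.10, adjusted p = 0.035), and on single diets it was -0.49 (s.e. 0.15) and -0.31 (s.e. 0.15), both with an adjusted p over the threshold by limma (0.0935 and 0.494). The averaged call was kept when P356, P357, P388 or P392 was left out and lost when any of the other 12 mice was left out (-0.42 to -0.35), with adjusted p from 0.00469 to 0.0823 over these 16 fits.

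*Grik3*, a pore-forming subunit of low glutamate affinity, was at 7.54, 13.5, 11.4 and 10.99 in SD controls and 1.43, 5.596, 5.65 and 5.58 in SD mutants. Values on HFD were 6.74, 11.7, 9.601 and 1.56 in controls and 6.71, 5.76, 4.702 and 6.21 in mutants. The groups were separate on SD, where the 3 mutants other than P357 were close together, and P357 and P392 were the lowest of the 16 mice. Separate groups of 4 mice always give an exact two-sided permutation p of 0.0286, the smallest possible, so this p adds nothing to the separation. The SD difference was -1.28 (s.e. 0.47, adjusted p = 0.149) by limma. It passed when P392 was left out (-1.28), and came to -0.87 without both P357 and P392. *Grik1*, with values of 0.386 to 4.36, was at -0.81 (s.e. 0.38, adjusted p = 0.244) on SD and 0.02 on HFD, and *Grik4* was not tested (mean 0.747).

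Upstream sequences of kainate and metabotropic receptor genes are shown for *Grik2*, *Grik5* and *Grm7*, the members of these families that differed averaged over diets, since *Esr1* encodes a factor that binds DNA at inverted copies of GGTCA. They are the 250 bases before the RefSeq start on GRCm38.p6, 5′ to 3′ on the strand of the gene, with any copy of GGTCA or of its reverse complement TGACC in capitals. *Grik2* lies at chr10:49788755-49789004 (minus), *Grik5* at chr7:25072370-25072619 (minus) and *Grm7* at chr6:110645262-110645511 (plus, the first of 2 starts).
Grik2: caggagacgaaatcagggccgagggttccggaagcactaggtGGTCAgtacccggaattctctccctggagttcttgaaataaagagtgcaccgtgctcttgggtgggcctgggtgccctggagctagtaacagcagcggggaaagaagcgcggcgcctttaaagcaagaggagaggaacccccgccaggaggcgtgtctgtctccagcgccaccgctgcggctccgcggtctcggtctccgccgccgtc
Grik5: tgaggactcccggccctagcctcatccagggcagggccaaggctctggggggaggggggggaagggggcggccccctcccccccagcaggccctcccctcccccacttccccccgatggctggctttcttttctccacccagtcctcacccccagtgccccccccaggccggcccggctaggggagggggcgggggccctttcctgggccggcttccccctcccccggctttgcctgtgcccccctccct
Grm7: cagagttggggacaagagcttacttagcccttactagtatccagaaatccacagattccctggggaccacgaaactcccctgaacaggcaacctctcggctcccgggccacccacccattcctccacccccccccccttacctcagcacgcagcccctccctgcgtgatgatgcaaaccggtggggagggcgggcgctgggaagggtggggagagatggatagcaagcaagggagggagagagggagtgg
*Grik2* held 1 such copy and the windows of *Grik5*, *Grm7*, *Gabre* and *Gabra3* none. Over 31 windows of 26 receptor genes with an entry, 8 held at least 1 copy on either strand (25.8%), against 35.2% of all 32851 promoter windows of this length. The full element GGTCANNNTGACC was in 0 of the 31 and in 0.0639% of all windows. These are matches of letters in a short window.

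Among GABA-A receptor genes, *Gabre*, which encodes the epsilon subunit found in few tissues, and *Gabra3* are neighbours on the minus strand of chromosome X (72255999 to 72274803 and 72432681 to 72656848), and both were lower in mutants. *Gabre* was at 6.104, 9.53, 9.63 and 7.37 in SD controls and 5.39, 2.94, 3.76 and 4.95 in SD mutants. HFD mice were at 4.55, 7.93, 6.13 and 3.57 in controls and 4.31, 3.21, 4.01 and 5.14 in mutants. The groups were separate on SD and overlapped on HFD. The log2 fold change of *Gabre* was -0.60 (s.e. 0.17, adjusted p = 0.044) averaged over diets by limma, -0.87 (s.e. 0.24) on SD and -0.34 (s.e. 0.24) on HFD. The averaged call was kept in 4 of 16 fits that left out 1 mouse (P356, P357, P388 or P392) and lost in the other 12 (-0.64 to -0.51). It was also lost with a filter at a mean of 5, with no filter and when animal numbers, split into 2 ranges, entered as a covariate (-0.60 in each).

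*Gabra3*, an alpha subunit whose mean over the mutants was under 1, was at 1.89, 1.44, 3.64 and 2.07 in SD controls and 0.236, 0.7003, 0.763 and 1.399 in SD mutants. In HFD mice it was at 1.81, 2.77, 2.83 and 0.917 in controls and 1.005, 1.21, 1.02 and 0.7403 in mutants. On SD the highest mutant lay just under the lowest control, and on HFD only P392 among controls lay within the mutants. Averaged over diets it was lower in mutants by limma, at -0.93 (s.e. 0.23, adjusted p = 0.0287), with -1.14 (s.e. 0.33) on SD and -0.72 (s.e. 0.33) on HFD. This call was lost without P339, P359, P382, P383, P387, P388, P390 or P391 (-0.94 to -0.82). *Gabrq*, the next receptor gene on chromosome X, was too low to test (mean 0.2004).

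The other GABA receptor genes described here did not pass in any comparison of the model with 4 group means and all 16 mice. *Gabra2* was at 10.02, 9.05, 10.8 and 10.96 in SD controls and 4.57, 8.24, 8.29 and 9.74 in SD mutants. Its values on HFD were 10.3, 10.3, 9.08 and 5.504 in controls and 9.85, 8.897, 6.22 and 9.16 in mutants. P357 and P392 were the lowest mice for *Gabra2*, and its differences were -0.42 (s.e. 0.23) on SD and -0.02 (s.e. 0.23) on HFD. *Gabra4* was at 3.599, 4.51, 5.66 and 4.86 in SD controls and 3.57, 6.77, 5.96 and 6.04 in SD mutants. Its HFD values were 2.94, 3.85, 3.85 and 3.28 in controls and 6.77, 5.17, 4.42 and 6.48 in mutants, and all HFD mutants were above all HFD controls. The HFD difference of *Gabra4* was 0.63 (s.e. 0.20, adjusted p = 0.278) by limma and did not pass the threshold. Its exact permutation p of 0.0286 is that of any separate groups of 4 and adds nothing to the separation. *Gabrb1*, a beta subunit, was at 3.62, 8.77, 6.76 and 4.35 in SD controls and 5.58, 7.46, 5.08 and 3.74 in SD mutants. Its values on HFD were 2.94, 5.62, 4.78 and 3.17 in controls and 4.88, 5.37, 5.57 and 8.38 in mutants. Groups of both diets overlapped, with differences of -0.06 (s.e. 0.28) on SD and 0.52 (s.e. 0.28) on HFD, and an exon of *Gabrb1* overlaps an exon of *Gabra4* on the other strand of chromosome 5. *Gabrb2*, also a beta subunit, had values of 0.457 to 2.59 and log2 fold changes of -0.26 (s.e. 0.29) on SD and 0.50 (s.e. 0.29) on HFD, neither past the threshold.

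*Gabbr1*, the only GABA-B subunit high enough to test, was at 149.6, 169, 178 and 177 in SD controls and 152, 132, 176 and 114 in SD mutants. On HFD, its values were 127, 171, 173 and 149 in controls and 162, 164, 116 and 179 in mutants. Values of the 4 groups overlapped, and the log2 fold changes of -0.25 (s.e. 0.15) on SD and -0.01 (s.e. 0.15) on HFD did not pass the threshold.

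Of the 4 subunits of AMPA receptors, which carry fast excitation, 0 passed in any comparison with all 16 mice in the fit. *Gria1* was at 13.7, 6.93, 7.19 and 4.91 in SD controls and 10.4, 14.7, 14.2 and 13.3 in SD mutants. With HFD it was at 7.49, 10.01, 8.501 and 16.6 in controls and 16.1, 13.1, 12.9 and 16.5 in mutants. A single control on each diet, P356 on SD and P392 on HFD, lay at or above the level of the lowest mutant, and the other 6 controls were at 10.01 or less, below all mutants. The averaged difference was 0.62 (s.e. 0.19, adjusted p = 0.0587) by limma, just over the threshold, with 0.74 (s.e. 0.26) on SD and 0.50 (s.e. 0.26) on HFD.

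*Gria4* was at 5.203, 7.25, 7.19 and 9.13 in SD controls and 3.43, 4.13, 2.65 and 2.52 in SD mutants. Values on HFD were 5.43, 7.21, 6.41 and 0.687 in controls and 2.15, 1.78, 1.62 and 3.84 in mutants. The groups were separate on SD, and on HFD P392 was below every mutant while the other 3 controls were above all of them. By limma the difference was -1.06 (s.e. 0.45, adjusted p = 0.211) on SD, -0.69 (s.e. 0.45, adjusted p = 0.646) on HFD and -0.87 (s.e. 0.32, adjusted p = 0.116) averaged over diets, with none past the threshold. Leaving out P392 brought the SD comparison under it (-1.06).

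*Gria2*, the subunit that keeps AMPA channels from passing calcium, was at 11.8, 21.6, 16.4 and 19.8 in SD controls and 15.1, 14.8, 12.7 and 11.7 in SD mutants. Its HFD values were 11.4, 14.4, 16.03 and 15.7 in controls and 11.5, 13.1, 14.3 and 14.1 in mutants. These groups overlapped, and the differences were -0.32 (s.e. 0.17) and -0.11 (s.e. 0.17). *Gria3* (values 0.841 to 3.77) was at -0.18 (s.e. 0.28) on SD and 0.49 (s.e. 0.28) on HFD.

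For the NMDA receptor, *Grin1* was at 39.8, 42.8, 43.9 and 43.3 in SD controls and 27.95, 54.3, 51.5 and 47.5 in SD mutants. Its HFD values were 36.6, 41.99, 40.1 and 44.9 in controls and 49.5, 43.9, 45.1 and 46.7 in mutants. P357 was the lowest of the 16 mice, and the other 3 SD mutants were above all SD controls. The differences of 0.05 (s.e. 0.16) on SD and 0.18 (s.e. 0.16) on HFD did not pass the threshold by limma, and the exons of *Grin1* overlap those of the antisense gene *Grin1os*. Its glutamate-binding partners *Grin2a* (mean 0.777) and *Grin2b* (mean 0.227) were under the filter of the main fit. *Grin2d* (values 0.846 to 2.98) and *Grin3a* (values 0.677 to 2.38) did not pass. *Grin3b* (mean 0.652) shares exon sequence with *Tmem259* on the other strand, which was at 53.2 to 72.6. Named after its values were seen, *Grin2b* was at 0.0261 to 0.165 in SD controls and 0.252 to 0.437 in SD mutants. On HFD it was at 0.0219 to 0.415 in controls (highest in P392) and 0.253 to 0.445 in mutants. *Grin2a* overlapped on SD, and on HFD was at 0.503 to 0.765 in controls and 0.861 to 1.32 in mutants. *Gabra5*, also under the filter, went the other way on SD, at 0.349 to 0.553 in controls and 0.0611 to 0.262 in mutants.

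Among metabotropic receptors, *Grm7*, a presynaptic receptor that lowers cyclic AMP, was higher in mutants (chromosome 6, 110645581 to 111567230, plus strand). It was at 0.264, 0.513, 0.367 and 0.234 in SD controls and 4.74, 2.05, 1.06 and 0.938 in SD mutants. On HFD it stood at 0.838, 0.669, 0.363 and 0.523 in controls and 2.51, 0.831, 1.52 and 1.49 in mutants. All SD mutants were above all SD controls, with P357 the highest of the 16 mice, and on HFD the lowest mutant (P341) lay just below the highest control (P385). By limma the log2 fold change was 1.48 (s.e. 0.36, adjusted p = 0.0487) on SD, 0.89 (s.e. 0.36, adjusted p = 0.423) on HFD and 1.18 (s.e. 0.26, adjusted p = 0.015) averaged over diets. The averaged call was kept in all 16 fits that left out 1 mouse (0.89 to 1.68 over all settings). The SD call was kept only without P356 or P392 and lost without any of the other 14, with 1.09 when P357 was left out and 1.42 to 1.72 for the rest. These levels are low, an exon of *Gm20387* overlaps *Grm7* on the other strand, and a fold change on this scale understates that of low genes.

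*Grm5*, a receptor coupled to calcium release, was at 4.09, 4.22, 4.13 and 4.49 in SD controls and 2.89, 2.86, 2.84 and 2.89 in SD mutants. HFD mice were at 2.75, 1.99, 4.84 and 1.29 in controls and 1.34, 2.31, 1.96 and 2.63 in mutants. Each SD group was tight and the groups were separate (exact permutation p = 0.0286, as for any separate groups of 4). Values on HFD spread widely, and the limma difference on SD, -0.49 (s.e. 0.26, adjusted p = 0.306), did not pass. The delta subunit gene *Grid1* (values 1.31 to 7.09) was at 0.56 (s.e. 0.34) on SD and 0.25 (s.e. 0.34) on HFD, with neither past the threshold.

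**Figure D3:**
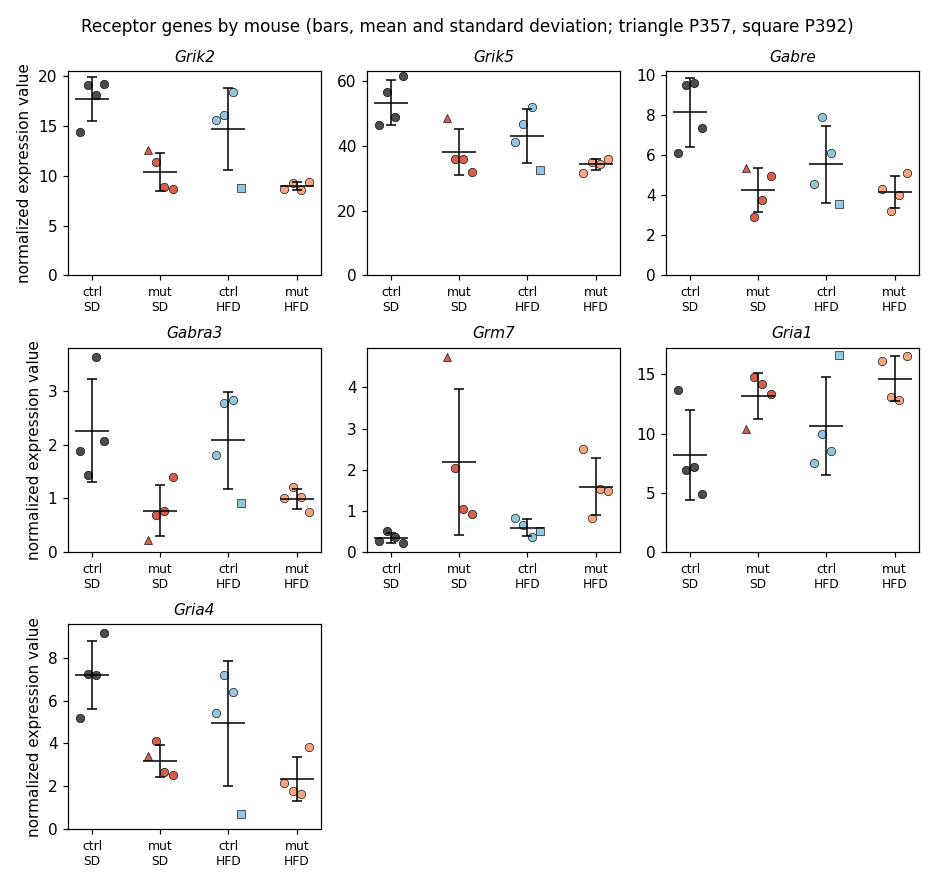
Per-mouse values of the 5 genes that passed averaged over diets and of *Gria1* and *Gria4*. Each point is 1 mouse, the y axis is the normalized expression value from 0, horizontal lines are means and bars are standard deviations (n = 4), the triangle is P357 and the square P392. The square lies among the mutants in *Grik2*, *Grik5*, *Gabre* and *Gabra3*, at 8.81 for *Grik2* and 0.917 for *Gabra3*.

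The mice low in lobe genes lay apart in some receptor genes too. P357 and P392 were both below the other 14 mice in 5 of the 21 genes (23.8%, against 3.79% of all genes tested), *Gabra2*, *Grik3*, *Grik1*, *Gria3* and *Grin3a*. *Grik1* was at 0.386 and 1.45 against 2.05 to 4.36 elsewhere, and *Grik3* at 1.43 and 1.56 against 4.70 to 13.5. None of these 5 was among the genes that passed averaged over diets. Both mice were above the others in 1 gene (4.76%, against 2.24%), *Grid1*, at 7.09 and 4.84 against 1.31 to 3.37. Whether these genes are expressed in the lobes that are low in both libraries was not tested. P357 also stood apart in its sum of values and its genes at 0, and the part of this was not tested either.

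**Figure D4:**
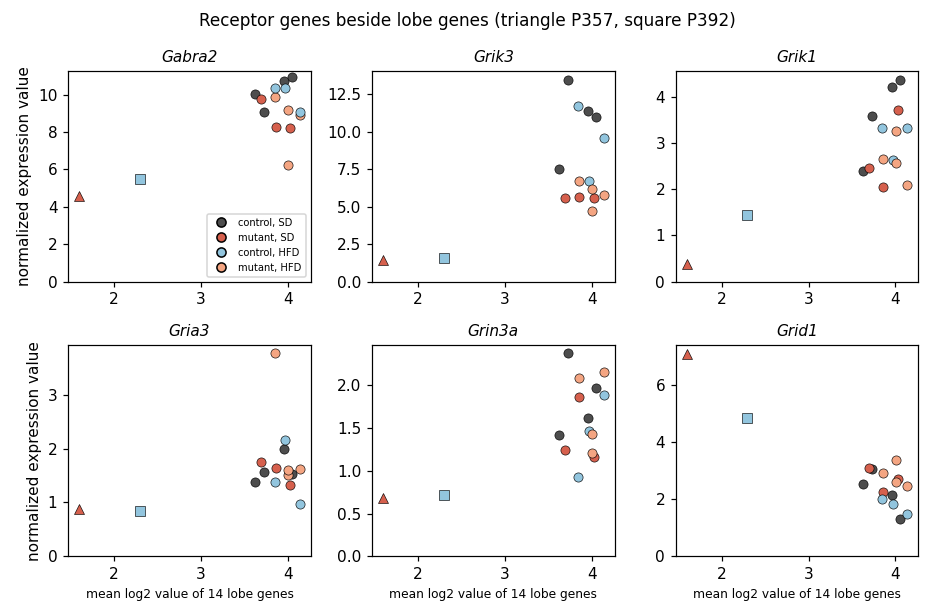
Receptor genes in which P357 and P392 lie outside the range of the other 14 mice. The x axis is the mean log2(value + 0.5) of 14 lobe genes, the y axis the normalized expression value of the receptor gene, and each point 1 mouse coloured by group (triangle P357, square P392). Both lie at 1.60 and 2.30 on the x axis, below the rest in 5 genes and above in *Grid1*.

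Without P357 and P392, more receptor genes passed by limma. On SD, 6 of 21 passed (28.6%, against 6.7% of all genes), with *Grm7* higher and *Grik2*, *Grik5*, *Grik3*, *Gria4* and *Gabre* lower in mutants. On HFD, 4 passed (19.0%, against 7.42%), with *Grik2* (-0.86), *Gria4* (-1.32), *Gabra3* (-0.98) and *Grik5* (-0.44) lower. Averaged over diets, 10 passed (47.6%, against 18.6%), which were the 5 genes above and *Grik3*, *Gria4*, *Gria1*, *Gabra4* and *Grin1*. With P392 alone left out, 2 genes passed on HFD (9.52%, against 4.55%) and 7 on SD (33.3%, against 5.42%). With the mean of the lobe genes as a covariate and all mice kept, 7 passed averaged over diets (33.3%, against 8.99%), 2 higher and 5 lower, and 0 on each single diet, where 7 on SD (33.3%, against 15.5%) and 6 on HFD (28.6%, against 13.9%) had an unadjusted p under 0.05. All of these counts include *Grm7* and *Gabra3* among the tested genes. The 5 genes were also called in both of these averaged fits, and *Grik3* and *Gabra4* were the others called in the second. P392 lay among the mutants in *Grik2*, *Grik5*, *Gabre* and *Gabra3*. Leaving out this control enlarges their differences, so the fit without P357 and P392 is not separate support for them.

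Diet alone moved no receptor gene past the threshold. In controls, 0 of 21 passed by limma (0% of all genes), and 3 had an unadjusted p under 0.05 (14.3%, against 4.13%), *Grm5* (-0.67 (s.e. 0.26)), *Gabre* (-0.55 (s.e. 0.24)) and *Grik5* (-0.31 (s.e. 0.15)), each lower on HFD. In mutants, 0 passed (0% of all genes), and 0 had an unadjusted p under 0.05 (background 5%). The interaction of genotype and diet passed in 0 (0% of all genes), and *Grin3a* (0.83 (s.e. 0.38)) had an unadjusted p under 0.05 (4.76%, against 4.2%). These unadjusted counts depended on single mice. Without P392, 0 of 21 were under 0.05 in controls (460 of all 14345 genes) and 0 for the interaction (602 of 14345). Without P356, 7 were under 0.05 in controls (1252 of 14345). The median difference between diets was -0.25 in controls and 0.11 in mutants over the 21 genes (0.00 and 0.02 over all genes). Comparisons of diet and genotype share groups of mice, so their values are not independent.

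Genes that make, carry and anchor these transmitters and receptors were counted from a list of 60, of which 59 had values and 49 were tested. On either diet alone, between diets and for the interaction, 0 of 49 passed by limma. Averaged over diets, 6 were higher and 3 lower in mutants, beside the 4.48% and 2.06% of all genes. AMPA auxiliary subunits were 3 of the 6, *Cacng2* (0.99 (s.e. 0.21, adjusted p = 0.0124)), *Cacng8* (0.66 (s.e. 0.19, adjusted p = 0.0447)) and *Cacng7* (0.40 (s.e. 0.10, adjusted p = 0.0284)). *Cacng2*, the stargazin gene, was at 1.11, 1.18, 0.846 and 0.851 in SD controls and 2.32, 2.83, 2.57 and 2.66 in SD mutants. In HFD mice it was at 0.863, 1.09, 0.886 and 3.86 in controls and 3.05, 3.51, 3.25 and 2.78 in mutants, with P392 the highest of the 16 mice.

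The vesicular glutamate transporter gene *Slc17a6* (0.88 (s.e. 0.18, adjusted p = 0.0114)), the GABA-synthesizing enzyme gene *Gad2* (1.22 (s.e. 0.27, adjusted p = 0.0174)) and the glutaminase gene *Gls2* (0.64 (s.e. 0.16, adjusted p = 0.0253)) were the other 3 that were higher. *Slc17a6* was at 16.1, 13.6, 8.76 and 10.01 in SD controls and 18.4, 23.4, 25.3 and 26.7 in SD mutants. On HFD, values were 15.5, 11.7, 10.9 and 27.1 in controls and 32.8, 30.8, 22.997 and 22.6 in mutants. Every mutant was above every control but P392, which lay among the HFD mutants. *Gad2* was at 1.31, 0.975, 0.673 and 1.79 in SD controls and 1.47, 3.95, 5.68 and 3.63 in SD mutants, and at 1.69, 1.88, 1.36 and 5.67 in HFD controls and 6.51, 8.43, 4.54 and 4.88 in HFD mutants, again with P392 apart from the other controls. *Gls2* overlapped on SD, at 11.5 to 19.2 in controls and 14.9 to 24.1 in mutants. On HFD it was at 9.24 to 13.2 and 14.2 to 31.2.

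The 3 that were lower were *Slc6a11*, which encodes a GABA uptake transporter (-1.27 (s.e. 0.29, adjusted p = 0.0184)), *Kctd8*, an auxiliary subunit of GABA-B receptors (-1.10 (s.e. 0.26, adjusted p = 0.0222)), and *Grip1*, an AMPA receptor scaffold (-0.48 (s.e. 0.12, adjusted p = 0.0288)). *Slc6a11* was at 2.34, 6.61, 8.53 and 5.25 in SD controls and 2.06, 1.34, 1.65 and 2.79 in SD mutants. With HFD it was at 2.13, 4.64, 7.801 and 1.71 in controls and 0.945, 0.866, 0.947 and 1.94 in mutants. P392 was the lowest HFD control for it. By function, 1 of 3 tested genes of GABA synthesis and breakdown, 1 of 4 of glutamate synthesis and breakdown, 1 of 6 of glutamate transport and 3 of 9 glutamate receptor auxiliary genes were higher. The only tested gene of GABA transport, 1 of 11 GABA receptor scaffolds and 1 of 13 glutamate receptor scaffolds were lower, and 0 of 2 genes of chloride transport passed.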

How the data were processed

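Total RNA of the pituitary of 16 mice was sequenced as 1 library per mouse. The authors made libraries with the NEBNext Ultra II kit, sequenced them on a NovaSeq, and quantified reads by gene with Kallisto, using a mouse transcriptome of build mm10; Sleuth was their test. Versions, annotation release, filter on listed genes and use of strand are not given in the sources used here. The deposited values are a normalized signal per gene, per transcript length, with sums of 908897 to 1335782 per mouse, and how libraries were scaled is not stated. They are not counts, so the count test named in the design was not used.

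Members were matched by symbol, some genes that match are not reported here, and counts of receptor genes leave them out. Coordinates are those of GENCODE M21 (GRCm38). A mean of 1 or more was met by 14345 genes. A linear model with 4 group means was fitted in limma 3.58.1 (R 4.3.3) to log2(value + 0.5) of these genes in the 16 mice, using eBayes with a trend, and p-values were adjusted by Benjamini-Hochberg over all of them (threshold 0.05). Single genes were compared with two-sided exact permutation tests. Figures used Python 3.11.15 and matplotlib 3.10.9. Per-mouse values are given for members that passed in any comparison and for the 10 with the highest means. They are also given for members with a mean of at least 1 whose mutants and controls did not overlap on a diet. Pathway genes are given as counts, with fold changes where they passed. Of these, *Cacng2*, *Slc17a6*, *Gad2* and *Slc6a11* are given per mouse. Members, gene lists and tests were chosen with earlier results of these data known, and the 2 mice low in lobe genes were known too.

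The size of 1 read was estimated from steps between low values of 1457 genes with 1 transcript of at least 1500 bases, where 81.3% to 93.7% of low values per mouse lay within 0.15 reads of a whole number. Depth otherwise is unknown. On simulated data of 14345 genes for the SD comparison, the fit found 67% of 200 genes shifted by a log2 change of 1, at a cost of 6.94% false calls, and 95% of those shifted by 2, with 1.55% false calls. The simulated noise was normal and independent for each gene. It held no deviation shared by many genes of 1 mouse, as in P357 and P392, so these rates may not hold for the real data. Mice of 1 group correlated at 0.918 to 0.974 (Pearson, 24 pairs) and no library was a copy of another. Labels carry no replicate numbers shared between groups. Alternatives were other filters, pseudocounts and scalings, no trend, only the mice compared, covariates for animal number range and lobe genes, each mouse left out, P357 and P392 left out, and a threshold of 0.01. All columns of mice were used.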

Additional observations from a re-analysis of the deposited data

Results flagged for a closer look

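Of 60 groups of 4 mice searched for 1 mouse far from the other 3, over the 15 genes whose values are given per mouse, 1 held one, and chance gives about 3. *Grik3* in SD mutants was 1.43 in P357, against 5.58 to 5.65 in the others. P357 is one of the mice low in lobe genes, and had the highest sum of values and the most genes at 0.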

How the results depend on the processing

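Differences that passed, or whose groups did not overlap on a diet, kept their direction under all settings tried, with 0 reversals, but counts of receptor genes past the threshold moved. On SD, where 1 passed, 0 passed with a filter at a mean of 5, with a pseudocount of 1, with median scaling, with quantile normalization, with the lobe genes as covariate and at a threshold of 0.01, 2 with only the mice compared, 6 without P357 and P392, and 0 to 7 when 1 mouse was left out (4 without P356, 7 without P392). On HFD, where 0 passed, 4 passed without P357 and P392, and 0 to 2 with 1 mouse left out (2 without P392). Averaged over diets, where 5 passed, 2 passed with the filter at a mean of 5, which tests 10 receptor genes, 10 without P357 and P392, 1 at a threshold of 0.01, and 2 to 8 with 1 mouse left out (8 without P357 or P392, and 2 or 3 without any mouse other than these, P356 and P388). With only genes at a mean of 1 or more in both genotypes, a choice made after seeing the data, 0 passed on SD and 3 averaged over diets. Diet and interaction counts were 0 under every setting. Over all genes, counts were 33 to 826 on SD and 441 to 1931 averaged over diets with 1 mouse left out, against 264 and 938, 105 on SD and 1289 averaged with the lobe genes as covariate, 151 and 610 with the filter at a mean of 5, and 961 and 2668 without P357 and P392. On HFD they were 653 without P392, 82 with the lobe genes as covariate and 1064 without both mice. The cause of these moves was not tested. No paired analysis was possible because the labels give no replicate numbers shared between groups. Counting error is largest for *Grm7*, *Gabra3* and other genes near a value of 1.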
